A study of Mus musculus with 34 samples.

Results

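Bins of 1 kb with strong H3K4me3 that lie over 5 kb from the ends of every protein-coding gene were examined in C2C12 cells, an established mouse myoblast line. A bin was taken when its counts, summed over the 3 H3K4me3 libraries made from 10000 cells, placed it in the top 1% of bins on chromosomes 1 to 19 and X, which came to at least 24 counts. This gave 4794 bins of 2631639, or 0.21% of the 2282553 bins over 5 kb from coding gene ends, and they are called distal H3K4me3 bins here. The ends are those of gene records on GRCm38, so an alternative start inside a long gene counts as distal. The counts of those 3 libraries chose the bins and are given below as description only.

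The data came from multi-target chromatin integration labelling (mtChIL-seq), in which antibodies carrying DNA probes are bound in fixed cells, the probes are inserted into nearby DNA by Tn5 transposase, and the genomic sequence beside each insertion is amplified by transcription. In dual staining, H3K4me3 and CTCF were read from the same cells at 1000 and at 10000 cells, and H3K27ac and Pol2S2P (RNA polymerase II phosphorylated on serine at the second position of its tail repeats, the elongating form) from the same cells at 100 and at 1000 cells. Each of these 8 dual groups held 3 libraries. CTCF stained singly at 10000 cells and Pol2S2P stained singly at 1000 cells held 2 libraries each, so 28 libraries in 10 groups were used. All groups are of untreated C2C12 cells as far as the labels say, and no group stands for another cell type. Nothing in the labels says that replicates were separate cultures, so a p-value measures the spread between these libraries, which may be technical.

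Totals ran from 719730 counts per library (H3K4me3, 1000 cells) to 6653065 (CTCF, single staining). The H3K4me3 libraries at 1000 cells held 719730 to 1317119 counts and the CTCF libraries from the same cells 2074168 to 3262623. Levels are given as times the genome mean, where 1 is a library's mean count per bin, so that libraries of different depth can be set side by side. A count over many cells does not separate a mark on few cells from a low amount in every cell. Within 1 kb of the gene ends, H3K4me3 at 1000 cells stood at 45.8 times the genome mean at Vim and 28.5 at Myf5, a myogenic transcription factor, but at 6.18 at Cdh15, 4.56 at Des and 0.472 at Myod1, the last being below the genome mean. Of 7 genes of other cell types, 6 (Alb, Apob, Ptprc, Gad1, Snap25 and Pou5f1) stood at 0.111 to 1.65, and Cd68 at 7.18. Their part in the results was not tested.

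Trimethylation of lysine 4 on histone H3 is laid down around active transcription starts, most strongly over CpG-rich promoters. CTCF is a sequence-specific DNA-binding protein that helps hold chromatin loops, H3K27ac marks active promoters and enhancers, and phosphorylated polymerase marks transcribed gene bodies. Starts that do not belong to the ends of a coding gene record include alternative promoters inside genes, promoters of long noncoding RNAs and of microRNA precursors, and genes read by RNA polymerase III such as tRNA genes. In myoblasts, microRNAs and long noncoding RNAs take part in the choice between growth and differentiation.

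The promoters shown here stand for 2 kinds of start that fell inside distal H3K4me3 bins and on which results below turn. Runx1 (a transcription factor) and Snhg5 (a small nucleolar RNA host) have CpG-rich starts, whereas Inhba (the activin beta A chain), Dnm3os (the precursor RNA of miR-199a and miR-214) and Gm49890 (a long noncoding RNA record) have starts poor in CpG. The sequences are from RefSeq on GRCm38.p6, 250 bases before to 50 after the start, 5′ to 3′ on the strand of the gene (plus for Inhba and Dnm3os, minus for the others). Capitals mark each CG dinucleotide.
Runx1 chr16:92697280-92697579: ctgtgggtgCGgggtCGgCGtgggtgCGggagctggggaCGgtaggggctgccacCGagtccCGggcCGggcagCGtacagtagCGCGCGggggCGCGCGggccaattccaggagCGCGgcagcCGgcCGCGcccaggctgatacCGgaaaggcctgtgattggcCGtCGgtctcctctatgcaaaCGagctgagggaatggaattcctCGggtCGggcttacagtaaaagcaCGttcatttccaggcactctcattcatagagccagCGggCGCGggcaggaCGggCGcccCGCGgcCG
Snhg5 chr9:88522848-88523147: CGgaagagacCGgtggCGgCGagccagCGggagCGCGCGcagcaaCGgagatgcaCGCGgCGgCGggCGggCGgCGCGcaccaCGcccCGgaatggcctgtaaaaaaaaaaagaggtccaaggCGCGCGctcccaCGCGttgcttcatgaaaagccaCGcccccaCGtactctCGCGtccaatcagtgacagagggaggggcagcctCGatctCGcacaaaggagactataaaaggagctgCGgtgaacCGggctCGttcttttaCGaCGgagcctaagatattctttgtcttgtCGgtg
Inhba chr13:16011601-16011900: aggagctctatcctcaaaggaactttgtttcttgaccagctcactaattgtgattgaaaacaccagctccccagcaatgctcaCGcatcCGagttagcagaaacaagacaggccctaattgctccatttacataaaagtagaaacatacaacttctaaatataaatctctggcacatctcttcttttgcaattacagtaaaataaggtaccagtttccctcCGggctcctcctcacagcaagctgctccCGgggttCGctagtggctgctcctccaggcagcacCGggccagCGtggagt
Dnm3os chr1:162217373-162217672: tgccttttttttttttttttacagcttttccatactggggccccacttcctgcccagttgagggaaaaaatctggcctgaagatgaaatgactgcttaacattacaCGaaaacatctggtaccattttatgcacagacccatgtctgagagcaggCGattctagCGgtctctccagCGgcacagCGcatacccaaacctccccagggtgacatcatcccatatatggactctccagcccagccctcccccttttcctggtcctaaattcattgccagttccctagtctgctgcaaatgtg
Gm49890 chr4:88941993-88942292: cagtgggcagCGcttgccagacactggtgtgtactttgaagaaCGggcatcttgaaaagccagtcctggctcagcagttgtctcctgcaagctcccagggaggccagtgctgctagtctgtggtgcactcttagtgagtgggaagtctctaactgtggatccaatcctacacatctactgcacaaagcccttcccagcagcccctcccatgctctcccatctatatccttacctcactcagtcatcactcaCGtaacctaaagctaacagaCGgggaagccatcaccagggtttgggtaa
The Runx1 promoter held 35 CG dinucleotides and a GC content of 69.0%, and Snhg5 held 36 and 62.0%. Inhba held 7 CG and 47.7%, Dnm3os held 5 and 48.7%, and Gm49890 held 4 and 53.3%. TATAAA was found in the windows of Snhg5 and Inhba, and CCAAT in those of Runx1, Snhg5 and Gm49890, reading both strands.

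The microRNAs shown next are those of a list of muscle and mesenchymal microRNAs whose gene lay within 1 kb of a distal H3K4me3 bin, with the more familiar arms given. The mature sequences are from RefSeq on GRCm38.p6, and capitals mark the seed, bases 2 to 8, which pairs with target RNAs.
mmu-miR-199a-5p: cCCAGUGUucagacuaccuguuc
mmu-miR-199a-3p: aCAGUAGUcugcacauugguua
mmu-miR-125b-5p: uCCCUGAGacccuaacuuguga
mmu-let-7i-5p: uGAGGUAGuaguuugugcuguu
mmu-miR-17-5p: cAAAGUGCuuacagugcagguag
mmu-miR-20a-5p: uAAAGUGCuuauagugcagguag
mmu-miR-19a-3p: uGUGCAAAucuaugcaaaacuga
mmu-miR-19b-3p: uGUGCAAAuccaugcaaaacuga
mmu-miR-18a-5p: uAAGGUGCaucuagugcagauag
mmu-miR-92a-3p: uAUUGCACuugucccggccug
The last 6 lie in 1 transcript, Mir17hg on chromosome 14. Among them miR-17-5p and miR-20a-5p share the seed AAAGUGC, and miR-19a-3p and miR-19b-3p share GUGCAAA, whereas miR-18a-5p (AAGGUGC) and miR-92a-3p (AUUGCAC) each have their own. The miR-125b-5p sequence is encoded in 2 genes, Mir125b-1 and Mir125b-2, and both lay within 1 kb of a distal H3K4me3 bin.

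The summed H3K4me3 counts at 10000 cells that chose the bins ran from 24 to 344, with a median of 35 and an interquartile range of 28 to 51. The 654 bins just inside the threshold, with 24 or 25 counts, averaged 13.3 times the genome mean in those libraries and 10.0 at 1000 cells, and the 797 bins just outside it, with 22 or 23 counts, averaged 12.2 and 9.20. Joined across gaps of at most 1 bin, the distal H3K4me3 bins formed 3119 regions, of which 2217 were a single bin, 516 had 2 bins and 386 had 3 or more. The 386 wider regions held 1545 of the bins. The median distance to the nearest coding gene end was 19.9 kb, with an interquartile range of 9.36 to 47.9 kb, and 479 bins (9.99%) lay over 100 kb away.

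In the 3 H3K4me3 libraries of 1000 cells, which the choice did not use, the same bins were again high. The median bin held 18 counts over these libraries, with an interquartile range of 12 to 27 and a range of 0 to 212, and 1 bin held 0. The median of all bins over 5 kb from coding ends was 0, with 1369519 of them at 0. Strong H3K4me3 bins within 5 kb of a coding gene end, chosen by the same threshold (21114 bins, called proximal here), had a median of 28. In all, 3309 distal H3K4me3 bins (69.0%) were also in the top 1% at 1000 cells, against 87.2% of proximal bins and 0.203% of all bins over 5 kb from coding ends.

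Most distal H3K4me3 bins lay inside coding genes. Bins within 1 kb of the end of a noncoding RNA gene, and then of a pseudogene, were classed first, also where they lay inside a coding gene. Apart from these, 2565 bins (53.5%) lay inside coding genes, against 35.7% of all bins over 5 kb from coding ends. A further 766 (16%) lay within 1 kb of the end of a noncoding RNA gene, against 2.80%, and 48 (1.00%) within 1 kb of a pseudogene end, against 1.61%. Another 336 (7.01%) lay inside a noncoding RNA gene, against 6.02%, and 1079 (22.5%) lay outside genes, against 53.9%. The 2 classes with a larger share among distal H3K4me3 bins than among bins at that distance in general by more than 10 percentage points were therefore coding gene interiors and noncoding RNA ends, and bins outside genes had the smaller share.

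**Figure D1:**
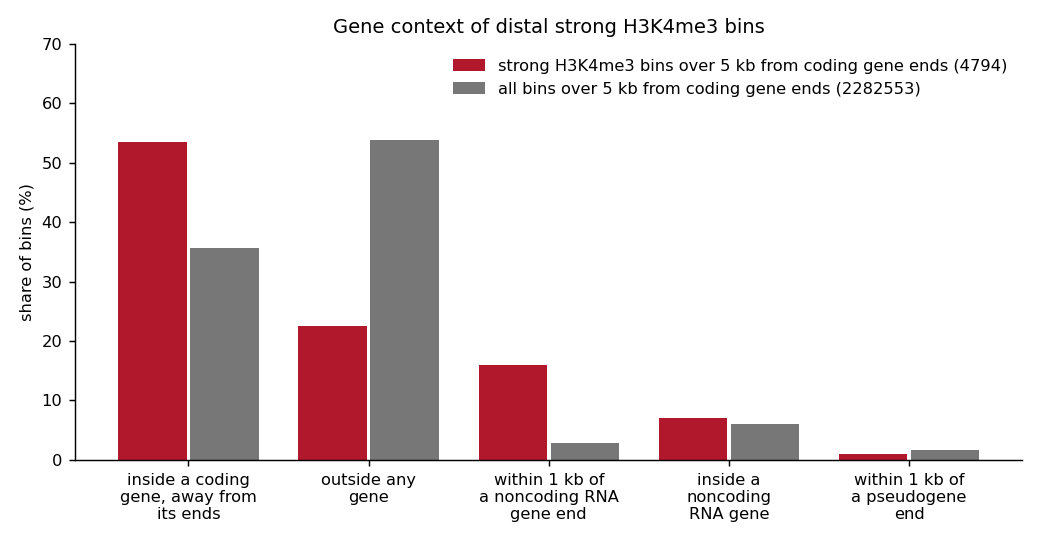
Share in percent of the 4794 distal H3K4me3 bins and of all 2282553 bins over 5 kb from coding gene ends that falls in each of 5 classes of position. Coding gene interiors held 53.5% of distal H3K4me3 bins and 35.7% of all such bins, and positions outside genes 22.5% and 53.9%.

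Starts inside coding genes made up part of the first class. A RefSeq coding transcript start lay within 1 kb of 746 distal H3K4me3 bins (15.6%), against 0.242% of all bins over 5 kb from coding ends. Of the 2565 bins inside coding genes, 638 (24.9%) had such a start, against 0.622% of bins inside coding genes at that distance. The other 1927 had none in the table used. The promoter windows of the 404 coding starts that fell inside a distal H3K4me3 bin, from 326 genes, had a median GC content of 62.0%, against 51.0% for the 1638 coding starts in other bins over 5 kb from coding ends. The ratio of observed to expected CpG reached 0.6 in 67.8% of them, against 16.2% in those other bins and 48.1% of all 21045 coding starts. For starts of noncoding RNAs the shares were 42.7% of 220 inside distal H3K4me3 bins and 4.65% of 8470 in other bins over 5 kb from coding ends.

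Short motifs were counted in the same windows on both strands, overlaps between motifs allowed. The TATA-box letters TATAAA were in 6.44% of the 404 coding starts inside distal H3K4me3 bins against 13.4% of the 1638 coding starts in other bins over 5 kb from coding ends and 13.7% of all 32620 starts. CCAAT was in 33.7%, against 35.5% and 37.6%, the E-box CAGCTG in 15.1%, against 21.8% and 16.4%, and the AP-1 letters TGANTCA in 8.91%, against 8.85% and 7.84%. These are matches of letters and not binding sites.

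Among noncoding RNA genes, tRNA genes stood out by share. Distal H3K4me3 bins made up 112 of the 670 bins over 5 kb from coding ends that lay within 1 kb of a tRNA gene end (16.7%), against 641 of 55419 for long noncoding RNAs (1.16%), 32 of 1972 for microRNAs (1.62%), 21 of 3029 for small nucleolar RNAs (0.693%) and 14 of 2592 for small nuclear RNAs (0.540%). Of 408 tRNA genes, 115 lay within 1 kb of a distal H3K4me3 bin, and they covered 20 amino acids. They included 14 of 25 leucine, 11 of 16 proline and 10 of 33 alanine genes but 2 of 56 cysteine genes. By chromosome they included 44 of 105 genes on chromosome 13 and 12 of 40 on chromosome 3 but 2 of 53 on chromosome 6. These totals are of all tRNA genes, including those with no bin over 5 kb from coding ends, which the choice could not reach. Neighbouring genes can also share a bin. Many tRNA genes have near-identical copies, and the labels do not say how reads that map to several places were handled, so counts at single tRNA genes are uncertain.

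Distal H3K4me3 bins held less H3K4me3 and more CTCF and H3K27ac than proximal ones. H3K4me3 at 1000 cells stood at 20.6, 19.8 and 20.3 times the genome mean in the 3 libraries, a mean of 20.3 ± 0.406 (SD, n = 3), against 29.2 ± 0.856 at proximal bins. CTCF from the same cells stood at 11.1, 10.6 and 10.3 times the genome mean, a mean of 10.7 ± 0.431, against 6.63 ± 0.295 at proximal bins. The libraries of distal and proximal bins are the same, and for neither target did the ranges of the 2 sets of bins overlap.

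H3K27ac at 1000 cells stood at 11, 12 and 11.8 times the genome mean at distal H3K4me3 bins, a mean of 11.6 ± 0.533 (SD, n = 3), against 5.62 ± 0.205 at proximal bins. Pol2S2P from the same cells stood at 6.56 ± 0.245 against 4.87 ± 0.157, and single-stained Pol2S2P at 1000 cells at 11.7 ± 0.0177 against 10.1 ± 0.194 (SD, n = 2). Single-stained CTCF stood at 12.7 and 12.2 in its 2 libraries, with a proximal mean of 7.26 ± 0.194 (SD, n = 2), so CTCF was again higher at the distal bins in a staining without the H3K4me3 antibody. At 100 cells H3K27ac stood at 12.2 ± 0.137 against 5.71 ± 0.117 and Pol2S2P at 6.30 ± 0.0559 against 4.84 ± 0.0299 (SD, n = 3 each). These are levels of sets chosen by H3K4me3, given without a test.

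**Figure D2:**
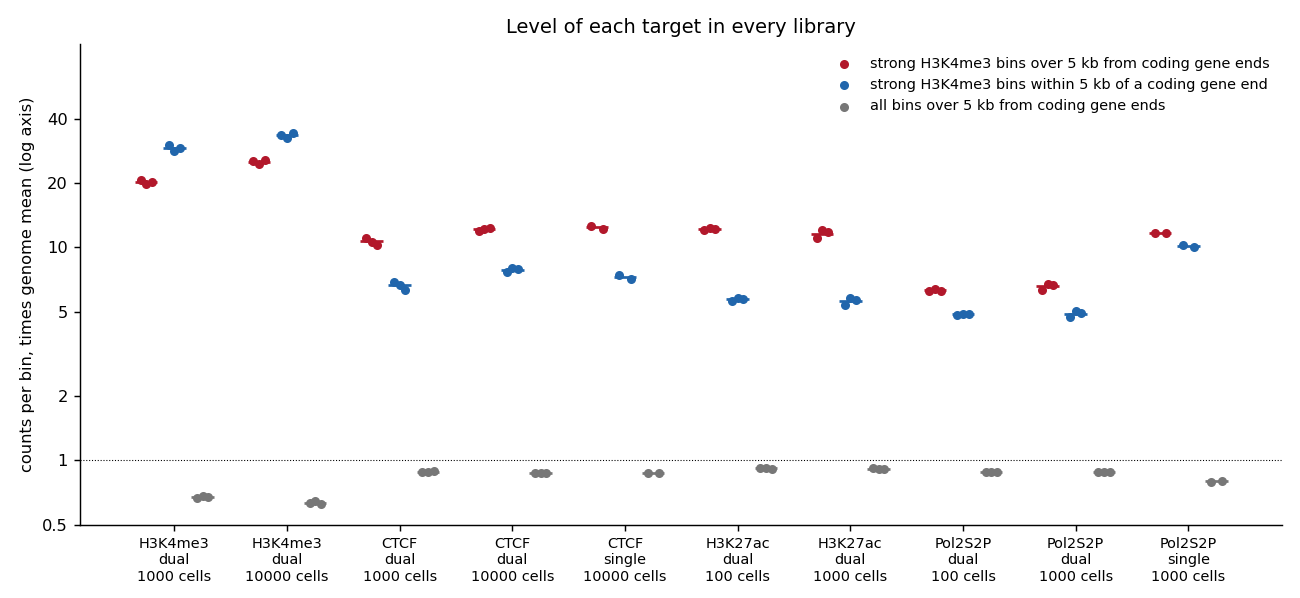
Level in times the genome mean (log axis) for each group of libraries at distal H3K4me3 bins, at proximal ones and over all bins over 5 kb from coding gene ends, with a point for each library and a bar at the group mean. H3K4me3 was lower at the distal bins (20.3 against 29.2 at 1000 cells), and CTCF (10.7 against 6.63) and H3K27ac (11.6 against 5.62) were higher.

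Many distal H3K4me3 bins were strong for another target too. Among them 54.1% were in the top 1% of bins for H3K27ac at 1000 cells, against 19% of proximal bins, 53.0% for single-stained CTCF, against 22.7%, and 41.5% for Pol2S2P at 1000 cells, against 22.4%. Both H3K27ac and CTCF were in the top 1% in 36.1%, against 8.37%, H3K27ac without CTCF in 18.1%, against 10.7%, and CTCF without H3K27ac in 17.0%, against 14.3%. Neither was in 28.9% of distal H3K4me3 bins, against 66.7% of proximal ones.

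The classes of position differed in these levels. The 638 bins inside coding genes with a start within 1 kb had the highest H3K4me3 at 1000 cells, 29.0 times the genome mean, with single-stained CTCF at 7.5 and H3K27ac at 6.24, near the proximal values. The 1927 bins inside coding genes with no start stood at 18.4, 12 and 12.2, and the 766 at noncoding RNA ends at 24, 11.1 and 9.75. The 336 inside noncoding RNA genes stood at 20.2, 13.6 and 14.8. The 48 bins at pseudogene ends stood at 24.4, 17.0 and 11.3, and the 1079 bins outside genes at 15.7, 16.4 and 14.1, the lowest H3K4me3 of these classes. Bins at tRNA gene ends had H3K4me3 at 19.3 ± 1.19 and CTCF at 12.2 ± 0.166 but H3K27ac at 4.72 ± 0.173 and Pol2S2P at 3.32 ± 0.128 (SD, n = 3, for CTCF n = 2).

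The share in the top 1% also varied between these classes. H3K27ac at 1000 cells was in the top 1% in 24.1% of the bins with an internal start, 60.7% of bins inside coding genes without one, 65.1% of bins outside genes and 11.6% of bins at tRNA ends. Single-stained CTCF was in the top 1% in 23.4%, 53.3%, 74.4% and 52.7% of the same 4 sets.

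Centred on the strongest bin of each of the 3119 regions, H3K4me3 at 1000 cells peaked at 18.5 times the genome mean and stood at 3.49 at 10 kb to the right. The 382 regions whose strongest bin lay at a coding start inside a gene peaked at 32.5 for H3K4me3, with CTCF from the same cells at 7.71. The 831 regions outside genes peaked at 14.1 ± 0.302 for H3K4me3, with CTCF at 15.2 ± 0.702 (SD, n = 3 each), a gap that was not tested.

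**Figure D3:**
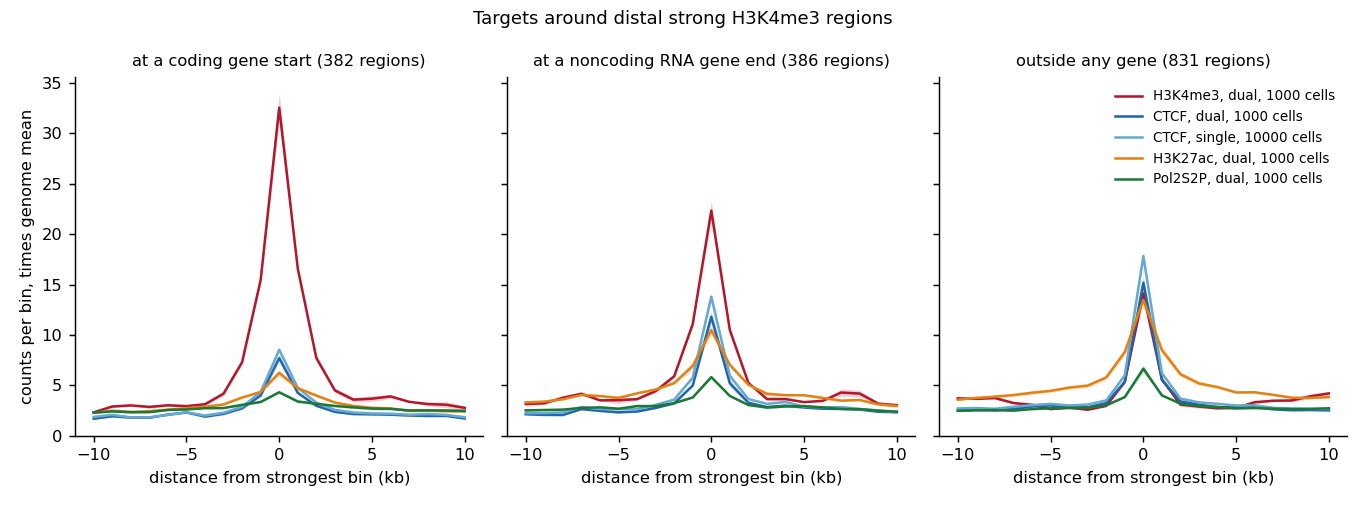
Mean level in times the genome mean against distance in kb from the strongest bin of each region, with shading of 1 SD over libraries, for H3K4me3, dual- and single-stained CTCF, H3K27ac and Pol2S2P, in regions at coding starts, at noncoding RNA gene ends and outside genes. At the centre, H3K4me3 stood at 32.5 in regions at coding starts and 14.1 in regions outside genes, and dual-stained CTCF at 7.71 and 15.2.

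H3K4me3 and CTCF were read from the same 1000 cells, and edgeR's quasi-likelihood test compared them bin by bin over the genome, adjusting p-values over all 16586 bins with enough counts. Of the 4794 distal H3K4me3 bins 2010 passed that filter, and the rest were not tested. Of those, 1154 (57.4%) were called higher for H3K4me3, where 71.9% of all tested bins were, and 370 (18.4%) were called lower, where 19.5% of all were. The median log2 difference was 1.39, against 2.27 over all tested bins. Proximal bins had 10696 higher and 237 lower calls among 11621 tested. The split depends on scaling, since the median of all tested bins was 2.27 by library totals, 0.18 after TMM and 0.07 with DESeq2. With TMM 337 distal H3K4me3 bins (16.8%) were called higher and 981 (48.8%) lower, where 24.9% and 32.1% of all tested bins were. With DESeq2 121 (6.02%) and 913 (45.4%) were, where 8.18% and 29.9% of all tested bins were. The place of the distal bins relative to all bins depends on the filter. With a filter of 10 counts, 4784 distal H3K4me3 bins were tested, with 36.2% called higher, where 8.84% of all 243738 tested bins were, and a median log2 difference of 0.85, against −0.35 over all tested bins.

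The difference varied with position. Bins with an internal coding start had 325 higher and 8 lower calls among 351 tested, with a median log2 difference of 2.58. Noncoding RNA ends had 257 and 41 among 368, with a median of 1.98, and bins inside coding genes without a start 376 and 120 among 673, with a median of 1.17. Bins outside genes had 116 higher and 160 lower calls among 443, with a median of −0.26. At tRNA ends 25 were higher and 3 lower among 44 tested, with a median of 0.93. Among all tested bins 71.9% were higher and 19.5% lower, with a median of 2.27. The class values are with library totals only, and the split between directions depends on scaling as given above. These counts cover bins that passed the filter, many of them through the group in which they were high, and are given as description.

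**Figure D4:**
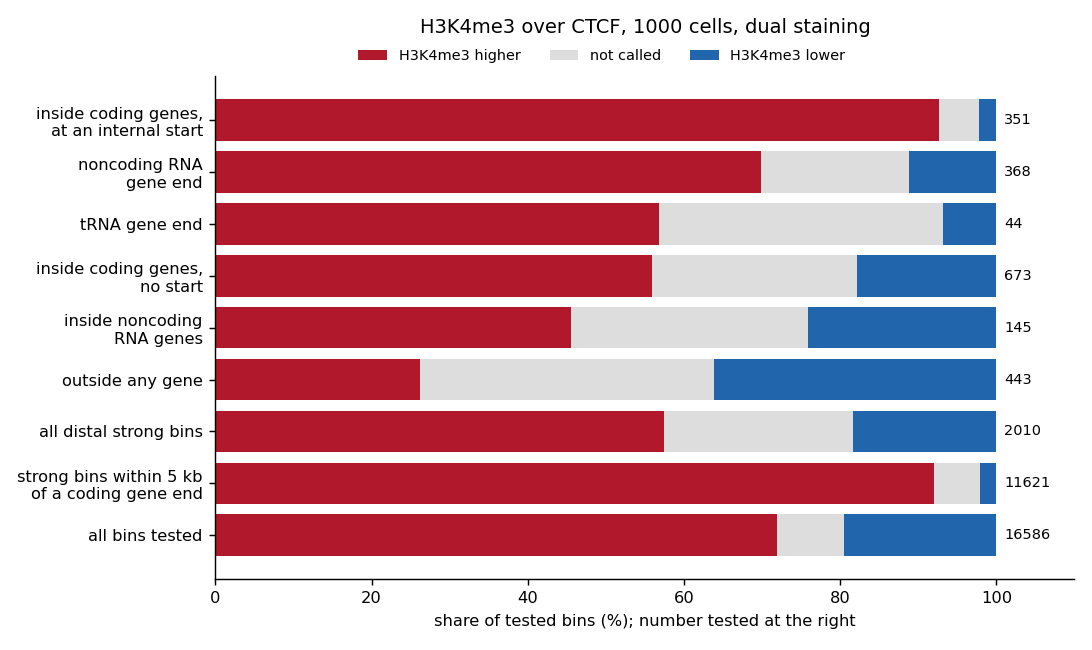
Share in percent of tested bins called higher, not called and called lower in H3K4me3 than in CTCF at 1000 cells, for classes of distal H3K4me3 bins, for all of them, for proximal bins and for all tested bins. H3K4me3 was called higher in 57.4% of tested distal H3K4me3 bins and in 71.9% of all tested bins.

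The bins with the widest gap in favour of H3K4me3 lay outside genes, in coding gene interiors and at a noncoding end. The bin chr15:85671656-85672655, in the widest region described below, held 43, 52 and 40 H3K4me3 counts, against 4, 7 and 2 CTCF counts. Every H3K4me3 library was above every CTCF library although the H3K4me3 libraries were shallower, and the log2 difference, relative to library totals, was 4.78 ± 0.32 (SE; adjusted p = 2.5e-21). A bin inside Lrrc4c, a synaptic adhesion gene, at chr2:97467606-97468605 held 40, 56 and 41 against 5, 4 and 7, a log2 difference of 4.50 ± 0.31 (adjusted p = 2.5e-21). The groups did not overlap there either.

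A bin inside Runx2, a transcription factor of bone formation, at chr17:44734821-44735820 held 24, 36 and 29 H3K4me3 counts, against 4, 3 and 4 CTCF counts, a log2 difference of 4.39 ± 0.37 (adjusted p = 9.27e-18). The end of the long noncoding RNA record Gm31365 inside Tnrc18, at chr5:142815421-142816420, held 21, 40 and 40 against 2, 4 and 6, a log2 difference of 4.45 ± 0.35 (adjusted p = 5.32e-19). Both bins were high in every H3K4me3 library, with no overlap between the groups. The bins named in this direction passed the filter through their H3K4me3 counts and were picked for their fold, so their p-values are given as description.

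Other distal H3K4me3 bins went the other way at 1000 cells. A bin inside Dennd3 at chr15:73553701-73554700 held 0, 0 and 2 H3K4me3 counts, against 23, 39 and 36 CTCF counts. Scaled by library totals, the summed H3K4me3 counts were 0.0554 of the CTCF counts, with a 95% counting interval of 0.00662 to 0.206 (adjusted p = 2.92e-08). It had passed the H3K4me3 threshold at 10000 cells, while its 3 libraries at 1000 cells held 2 counts in all.

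A bin inside Krt78, a keratin gene, at chr15:101973586-101974585 held 2, 2 and 1 H3K4me3 counts, against 37, 64 and 61 CTCF counts, and its log2 difference was −3.52 ± 0.45 (adjusted p = 6.7e-11). A bin outside genes at chr10:94991616-94992615, with Plxnc1 46.6 kb away, held 0, 4 and 1 against 45, 57 and 50, and its log2 difference was −3.45 ± 0.47 (adjusted p = 4.23e-10). The bin chr8:123628501-123629500, also outside genes, held 0, 1 and 2 against 21, 31 and 37, a ratio of 0.0915 with a 95% counting interval of 0.0185 to 0.276. In all of these bins every CTCF library was above every H3K4me3 library. Counting intervals cover counting error only. These bins passed the filter through their CTCF counts and were picked for their fold, so their p-values and intervals are given as description.

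The 12 regions with the highest summed H3K4me3 counts at 10000 cells show what the strongest distal H3K4me3 looks like. The widest, chr15:85662656-85687655, had 25 bins and 2458 counts and overlapped no gene. Its nearest gene record was Lncppara, a long noncoding RNA 16.1 kb away, its nearest microRNA Mirlet7c-2, a let-7 gene, 18.9 kb away, and its nearest coding gene Ppara, a nuclear receptor of fatty acid metabolism, 47.3 kb away. H3K4me3 at 1000 cells stood at 51.9, 44.0 and 44.3 times the genome mean over the region, against 6.65, 6.07 and 4.96 for CTCF from the same cells. H3K27ac stood at 20.9, 23.8 and 23.5, against 13.3, 12.8 and 14.5 for Pol2S2P. Neither pair of targets overlapped. All 22 bins tested for H3K4me3 over CTCF were called higher, where 71.9% of all tested bins were. For H3K27ac over Pol2S2P 13 of 24 were called higher, where 55.9% of all tested bins were.

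The region chr4:88927641-88943640, of 15 bins in 16 kb and 1989 counts, covered the promoter of Gm49890 printed above. It lay 17.0 kb from Mir31, the gene of a microRNA expressed in muscle progenitors, and 47.4 kb from Ifne, the nearest coding gene. H3K4me3 stood at 68.3, 65.9 and 67.1 times the genome mean, against 7.70, 8.93 and 7.47 for CTCF, and H3K27ac at 32.4, 34.1 and 35.6, against 19.8, 22.3 and 20.5 for Pol2S2P. The 14 bins tested for H3K4me3 over CTCF were all called higher, where 71.9% of all tested bins were. The region's strongest bin had a log2 difference of 3.04 ± 0.23 (adjusted p = 3.62e-19). The promoter in this region is one of the CpG-poor ones.

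The region chr9:41577836-41587835, of 10 bins and 1037 counts, lay in Mir100hg, the host transcript of miR-100, let-7a-2 and miR-125b-1, and 318 kb from the nearest coding end. H3K4me3 stood at 59.2, 50.7 and 46.0 times the genome mean there, against 6.47, 4.84 and 6.55 for CTCF. All 8 tested bins were called higher, where 71.9% of all tested bins were. The region chr6:31080876-31089875, of 9 bins and 900 counts, lay 3.69 kb from Lncpint, a p53-linked long noncoding RNA, and 17.8 kb from Mir29b-1. It stood at 54.4, 49.1 and 51.1 for H3K4me3, against 11, 7.44 and 6.13 for CTCF, and had the highest H3K27ac of the 12 after the ribosomal RNA region, 38.5 ± 2.1 (SD, n = 3). The groups overlapped in neither region.

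Coding genes held 5 of the 12 regions, Plec, Inhba, Runx1, Rbfox2 and Tmpo. Runx1 had the highest H3K4me3 level of the 12 at 1000 cells, with 79.8, 77.9 and 65.0 times the genome mean at chr16:92691626-92697625, against 9.09, 7.12 and 9.77 for CTCF, and this region held the start whose promoter is printed above. Inhba had 48.5, 42.1 and 43.4 at chr13:16009936-16020935, against 7.38, 7.41 and 9.48, also around an internal start. Tmpo, a nuclear envelope gene, had 75.6, 63.6 and 53.3 at chr10:91166631-91172630, against 16.1, 14.2 and 11.3. All 3 regions were high in every H3K4me3 library.

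Rbfox2, a splicing factor, stood at 64.2, 47.4 and 52.8 times the genome mean for H3K4me3 at chr15:77148691-77155690, against 12.7, 10.8 and 9.97 for CTCF, with no start in the table. Plec, the plectin gene that links intermediate filaments to muscle attachment sites, stood at 33.8, 32.8 and 35.0 at chr15:76192691-76208690, against 16.9, 13.5 and 11.4. All tested bins of Inhba (9), Runx1 (5), Rbfox2 (5) and Tmpo (6) and 10 of 12 of Plec were called higher for H3K4me3. Among all tested bins the share was 71.9%. The strongest bins of Runx1 and Plec were higher by 1.99 ± 0.26 and 1.56 ± 0.23 on the log2 scale with library totals, below the median of all tested bins, and their sign turned to −0.11 and −0.54 with TMM and to −0.23 and −0.66 with DESeq2. With DESeq2 the strongest bins of Rbfox2, Tmpo and the Gm49890 region kept their sign but missed the threshold.

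The region chr8:123427501-123434500, 5.49 kb from Tubb3, a neuronal beta-tubulin gene, had 7 bins and stood at 79.4, 56.5 and 62.8 times the genome mean for H3K4me3, against 5.62, 4.61 and 4.31 for CTCF. Malat1, a nuclear long noncoding RNA, had a region of 10 bins, chr19:5794981-5804980, with 51.9, 52.9 and 47.0 for H3K4me3, against 5.46, 5.97 and 5.0 for CTCF. In this region alone of the 12 the mean of dual-stained Pol2S2P was above that of H3K27ac at 1000 cells. H3K27ac stood at 12.2, 13.0 and 12, against 17.5, 20.3 and 19.5 for Pol2S2P. Of the region's 10 tested bins 5 were called lower for H3K27ac and 1 higher, where 9.59% and 55.9% of all tested bins were.

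The region chr17:39842841-39848840, with the ribosomal RNA records Rn18s-rs5 and AY036118, was the exception for CTCF at 1000 cells. H3K4me3 stood at 61.5, 65.9 and 51.2 times the genome mean there, against 85.0, 71.4 and 66.8 for CTCF, with means of 91.0 and 83.3 at 10000 cells, and H3K27ac at 44.9 ± 2.70, against 25.4 ± 3.57 for Pol2S2P (SD, n = 3 each). None of its 6 tested bins was called higher for H3K4me3 and 1 was called lower, where 71.9% and 19.5% of all tested bins were. It was high for every target, and ribosomal RNA has many near-identical copies, so its counts are uncertain.

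**Figure D5:**
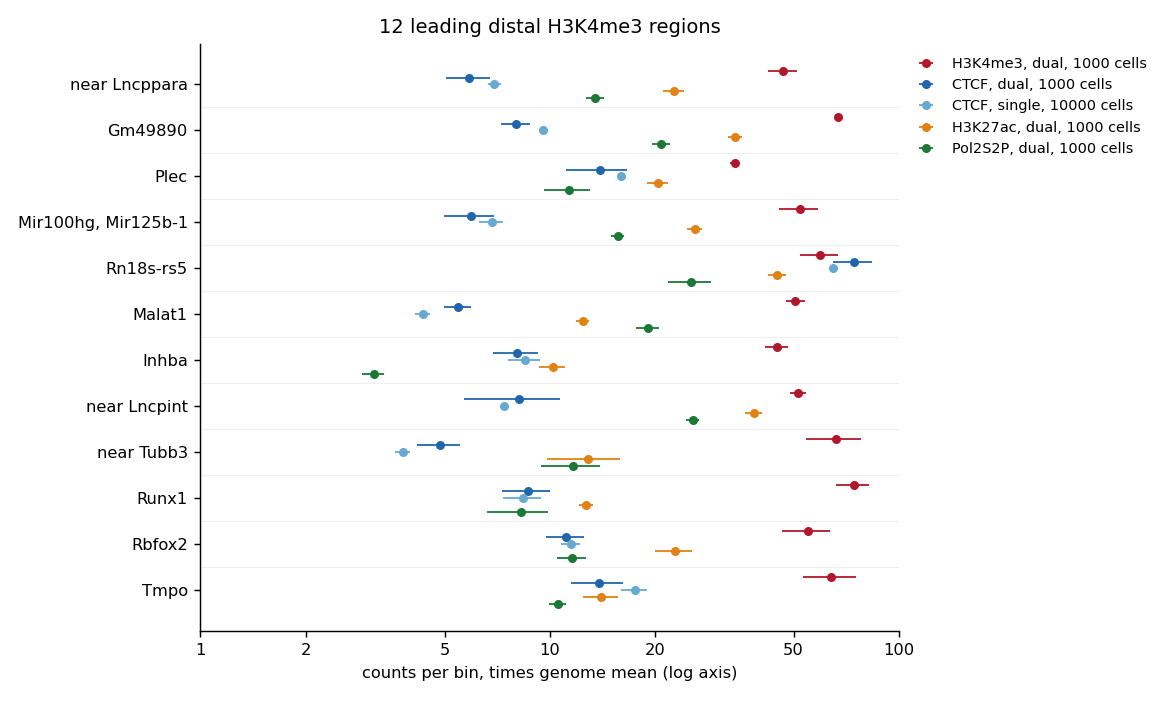
Level in times the genome mean (log axis) in the 12 regions with the highest summed H3K4me3 counts, for H3K4me3, CTCF, H3K27ac and Pol2S2P at 1000 cells in dual staining and for single-stained CTCF, with points at the group means and bars of 1 SD over libraries. H3K4me3 ranged from 33.9 in Plec to 74.2 in Runx1 and was above dual-stained CTCF in 11 of the 12, the exception being the ribosomal RNA region (59.6 against 74.4).

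Of the listed muscle and mesenchymal microRNA genes with a bin over 5 kb from coding ends, 10 of 39 (25.6%) lay within 1 kb of a distal H3K4me3 bin, against 589 of 14476 noncoding RNA genes in general (4.07%). The 10 genes shared 5 strongest bins, since the Mir17hg cluster has 6 of them in 1 bin. All 4 bins tested for H3K4me3 over CTCF were called higher, where 71.9% of all tested bins were. None of 22 listed microRNAs of other lineages had such a bin. At the general share of 4.07% few of 22 genes would have one, so this does not set that list apart. The lists were drawn up with earlier results of these data known.

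At Mir199a-2, inside Dnm3os, the bin chr1:162218341-162219340 held 24, 50 and 51 H3K4me3 counts, against 4, 8 and 4 CTCF counts, or 39.9 ± 7.73 against 1.90 ± 0.572 CPM (counts scaled by library total; SD, n = 3 each). The log2 difference was 4.36 ± 0.31 (adjusted p = 1.68e-20). The precursor gives miR-199a and miR-214, both present in muscle and mesenchyme, and its start is the CpG-poor Dnm3os promoter printed above. H3K27ac held 23, 21 and 20 counts there, against 8, 7 and 9 for Pol2S2P, a log2 difference of 1.56 ± 0.33 (adjusted p = 0.000387). Neither pair of targets overlapped, and the H3K27ac call kept its sign but missed the threshold with TMM and with DESeq2. For each pair the bin passed the filter through its H3K4me3 or H3K27ac counts, so both p-values are given as description.

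At Mir125b-1, whose microRNA has been studied as a brake on myoblast differentiation, chr9:41582836-41583835 held 28, 53 and 49 H3K4me3 counts, against 2, 7 and 11 CTCF counts, a log2 difference of 4.11 ± 0.30 (adjusted p = 3.46e-20). H3K27ac over Pol2S2P was higher by 0.91 ± 0.22 on the log2 scale (adjusted p = 0.00117), but turned to −0.013 with TMM and −0.027 with DESeq2. At Mir125b-2, which encodes the same miR-125b-5p, chr16:77644686-77645685 held 2, 8 and 2 against 1, 10 and 5, too few for the test. The groups overlapped there.

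At Mirlet7i, a let-7 gene, chr10:122984501-122985500 held 38, 52 and 33 H3K4me3 counts, against 9, 15 and 12 CTCF counts, a log2 difference of 3.21 ± 0.27 (adjusted p = 1.62e-17). At the Mir17hg cluster, a growth-promoting microRNA cluster, chr14:115042536-115043535 held 18, 29 and 29 against 8, 16 and 7, a log2 difference of 2.72 ± 0.32 (adjusted p = 3.7e-12), which kept its sign but missed the threshold with TMM and with DESeq2. Every H3K4me3 library was above every CTCF library at both bins, and the let-7i call missed the threshold with DESeq2. Both bins, and that of Mir125b-1, passed the filter through their H3K4me3 counts. Their p-values for H3K4me3 over CTCF are therefore given as description.

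Of the listed long noncoding RNAs with a bin over 5 kb from coding ends, 19 of 34 (55.9%) lay within 1 kb of a distal H3K4me3 bin, against 4.07% of noncoding RNA genes in general. Of their strongest bins 16 were tested for H3K4me3 over CTCF, with 15 called higher and 0 lower, where 71.9% and 19.5% of all tested bins were. Pvt1, the long noncoding neighbour of Myc, had the single highest bin of all, chr15:62038751-62039750, with 344 summed counts at 10000 cells. At 1000 cells this bin held 60, 85 and 67 H3K4me3 counts, against 14, 24 and 19 CTCF counts, or 70.5 ± 11.1 against 6.78 ± 0.567 CPM, and a log2 difference of 3.34 ± 0.22 (adjusted p = 5.09e-22). Its groups did not overlap. The bin was picked for its H3K4me3 counts at 10000 cells, so its p-value is given as description.

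Small nucleolar RNA hosts, whose introns carry small nucleolar RNAs, were among them. Snhg5 held 9, 50 and 25 H3K4me3 counts, against 4, 8 and 3 CTCF counts, a log2 difference of 3.85 ± 0.37, and Snhg15 held 19, 42 and 41 against 5, 8 and 10, a log2 difference of 3.56 ± 0.31. Snhg17 was higher by 3.28 on the log2 scale, a call that DESeq2 did not make. Of the architectural RNAs, Malat1 was higher by 3.97 in its strongest bin at an end and Neat1, the RNA of paraspeckles, by 3.83, with 18, 24 and 18 against 3, 4 and 4 counts. None of these bins overlapped between the targets.

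Listed long noncoding RNAs also included Kcnq1ot1, Hotair and 5 genes on the X chromosome. Kcnq1ot1, the imprinted antisense RNA, was higher for H3K4me3 by 3.35 ± 0.46 on the log2 scale, Jpx, an activator of Xist, by 2.54 ± 0.43, and Xist, the RNA that coats the inactive X, by 2.76 ± 0.39, with 9, 25 and 12 counts against 4, 6 and 8. With DESeq2 none of these 3 passed the threshold, and with TMM Jpx and Xist did not. Tsix, antisense to Xist, held 1, 8 and 11 against 15, 30 and 20 counts and did not pass the test (log2 difference −0.26 ± 0.40, adjusted p = 0.534). The Xist and Tsix bins lie 2 kb apart on overlapping genes, and the counts carry no strand, so they cannot be assigned to either transcript. Hotair, of the HoxC cluster, was higher by 1.68 ± 0.37 with library totals, and turned to −0.41 with TMM and −0.57 with DESeq2. Its raw counts, 11, 22 and 9 against 11, 8 and 16, overlapped. The X-linked Firre, with 3, 7 and 3 H3K4me3 counts against 4, 5 and 3 CTCF counts, and Ftx, with 4, 6 and 3 against 7, 12 and 12, had too few counts for the test.

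Of the polymerase III and small nuclear RNA genes with a bin over 5 kb from coding ends, 119 of 323 (36.8%) lay within 1 kb of a distal H3K4me3 bin, against 4.07% of noncoding RNA genes in general. They shared 73 strongest bins, of which 35 were tested for H3K4me3 over CTCF, with 21 called higher and 3 lower, where 71.9% and 19.5% of all tested bins were. Their median log2 difference was 0.96, against 2.27 over all tested bins. Besides tRNA genes the list reached Rny1 and Rny3 (Y RNAs), Rnu3b3 and Rnu2-10. Rnu2-10 was lower, with 2, 10 and 3 H3K4me3 counts against 16, 47 and 23 CTCF counts (log2 difference −1.06 ± 0.42, adjusted p = 0.0141). Its raw counts did not overlap, but the CTCF libraries were deeper, and scaled by library totals the groups overlapped. The call was lost with the filter of 10 counts and when H3K4me3 replicate 1 or 3 or CTCF replicate 2 was left out. The bin passed the main filter through its CTCF counts, so its p-value is given as description.

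By gene, 358 coding genes held at least 3 distal H3K4me3 bins, and 184 of these had a coding start within 1 kb of one. Plec had the most, 17 bins, followed by Stard13 with 14, Frmd4a and Septin9 with 13 each, Mbnl1 (a splicing factor of muscle) and Zfhx3 with 12 each, and Inhba and Runx2 with 11 each. Rbfox2, Cmss1, Filip1l, Specc1, Pakap, Rbms1, Arhgef2 and Bcar3 had 10 each, those of Cmss1 and Filip1l being the same bins on overlapping genes. All but Plec, Runx2 and Rbfox2 had a coding start within 1 kb of some of their bins.

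Levels over these gene sets varied. H3K4me3 at 1000 cells stood at 44.7 ± 3.39 times the genome mean over the Inhba bins, 42.1 ± 6.33 over Rbfox2, 39.0 ± 4.23 over Runx2 and 32.2 ± 2.44 over Mbnl1, but at 14.2 ± 3.24 over Bcar3 (SD, n = 3 each). H3K27ac ran the other way at the ends of that range, with 26.1 ± 2.20 over Bcar3, a Cas adaptor gene, and 10.2 ± 0.868 over Inhba. All 10 Bcar3 bins were called higher for H3K27ac than for Pol2S2P at 1000 cells, and 3 of 3 tested Inhba bins, where 55.9% of all tested bins were. For H3K4me3 over CTCF all tested bins were called higher in Runx2 (7), Frmd4a (6) and Zfhx3 (6), and 6 of 7 in Mbnl1, where 71.9% of all tested bins were.

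H3K27ac and Pol2S2P were read from the same 1000 cells. Of 2248 tested distal H3K4me3 bins 1447 (64.4%) were called higher for H3K27ac, where 55.9% of all 18660 tested bins were, and 37 (1.65%) lower, where 9.59% of all were. The median log2 difference was 1.01, against 0.97 over all tested bins, but this closeness depends on the filter. With a filter of 10 counts, 4686 distal H3K4me3 bins were tested. Of these 19.1% were called higher, where 1.33% of all 637096 tested bins were, and the median was 0.73, against −0.08. Proximal bins had 1206 higher and 361 lower calls among 3543 tested. Bins outside genes had 448 higher and 3 lower among 613, and bins with an internal start 60 and 2 among 118. The split again depends on scaling. After TMM (median of all bins 0.05) 197 (8.76%) were higher and 176 (7.83%) lower, where 10.4% and 19.1% of all tested bins were. With DESeq2 (0.04) 63 (2.80%) were higher and 114 (5.07%) lower, where 3.73% and 15.2% of all tested bins were.

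The 4 named bins with the widest gap in favour of H3K27ac lay outside genes, inside Bcar3 and at the end of Platr6. The bin chr5:111880546-111881545, 365 kb from Cryba4 and 11.7 kb from the record Gm29935, held 23, 40 and 27 H3K27ac counts, against 5, 5 and 4 Pol2S2P counts, a log2 difference of 2.81 ± 0.37 (adjusted p = 3.78e-06). A bin inside Bcar3 at chr3:122483506-122484505 held 33, 39 and 35 against 2, 4 and 11, a log2 difference of 2.79 ± 0.36 (adjusted p = 3.59e-06). The groups did not overlap in either bin. Both passed the filter through their H3K27ac counts and were picked for their fold, so their p-values are given as description. The end of Platr6, a long noncoding RNA, at chr10:21833916-21834915 was higher by 2.56 ± 0.28 on the log2 scale, and chr13:51885791-51886790, 37.3 kb from Gadd45g, a stress-response gene, by 2.45 ± 0.38.

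The 4 named bins in which H3K27ac was lower lay in Npm1, Malat1 and Neat1 and beside Snhg5. A bin inside Npm1, the nucleophosmin gene, at chr11:33157866-33158865 held 12, 2 and 4 H3K27ac counts, against 46, 21 and 31 Pol2S2P counts (log2 difference −2.26 ± 0.39, adjusted p = 6.06e-05). A Malat1 bin at chr19:5794981-5795980 held 12, 11 and 3 against 29, 44 and 45 (log2 difference −2.02 ± 0.34, adjusted p = 3.9e-05), and a Neat1 bin at chr19:5839981-5840980 held 14, 10 and 18 against 46, 63 and 51 (log2 difference −1.77 ± 0.26, adjusted p = 1.32e-05). Every Pol2S2P library was above every H3K27ac library in these 3 bins. A bin beside Snhg5 at chr9:88519641-88520640 was lower by −1.64 ± 0.32 on the log2 scale. The bins of Npm1, Malat1 and Snhg5 passed the filter through their Pol2S2P counts. All 4 were picked for their fold, so the p-values are given as description.

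At 100 cells 495 distal H3K4me3 bins were tested, of which 371 (74.9%) were called higher for H3K27ac, where 70.9% of all 1769 tested bins were, and 4 lower, where 6.56% of all were. The median log2 difference was 1.41, against 1.56 over all tested bins. With TMM 7 (1.41%) were higher and 38 (7.68%) lower, where 3.67% and 13.8% of all tested bins were. With DESeq2 1 (0.202%) was higher and 22 (4.44%) lower, where 0.226% and 11.4% of all were. With a filter of 10 counts, 4014 distal H3K4me3 bins were tested. Of these 7.08% were called higher, where 1.02% of all 186198 tested bins were, and the median was 0.90, against 0.06. The bin near Gm29935 again led, with 14, 15 and 16 H3K27ac counts, against 1, 0 and 2 Pol2S2P counts, a ratio of 17.6 after scaling by library totals with a 95% counting interval of 5.65 to 88.5. A bin outside genes at chr12:69538721-69539720 held 17, 16 and 14 against 2, 1 and 1, a log2 difference of 3.66 ± 0.49 (adjusted p = 0.000122). The groups overlapped in neither bin, and DESeq2 called neither. Both passed the filter through their H3K27ac counts and were picked for their fold, so the p-value and the interval are given as description.

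Further bins outside genes were higher for H3K27ac at 100 cells by 3.55 ± 0.52 on the log2 scale at chr5:118464521-118465520 and by 3.34 ± 0.57 at chr6:129229476-129230475, 36.8 kb from Cd69, a call lost with TMM and with DESeq2. A bin inside Hnrnpu, an RNA-binding protein gene, at chr1:178331276-178332275 was lower, with 2, 1 and 2 H3K27ac counts against 24, 17 and 11 Pol2S2P counts (log2 difference −3.05 ± 0.53, adjusted p = 0.000214). In Neat1, the bin chr19:5839981-5840980 was lower by −1.79 ± 0.45 on the log2 scale at 100 cells, with 3, 4 and 7 counts against 18, 23 and 17, and the bin chr19:5836981-5837980 by −1.93 ± 0.30. Groups did not overlap in the Hnrnpu bin or in either Neat1 bin. These bins passed the filter through their Pol2S2P counts and were picked for their fold, so the p-value is given as description.

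Whether the difference between H3K27ac and Pol2S2P itself changed between 100 and 1000 cells was tested as an interaction in 2181 distal H3K4me3 bins. The adjusted test called 0 higher and 0 lower, where 0% of all 17613 tested bins were called in either direction. With edgeR 117 of these bins had an unadjusted p under 0.05, and with DESeq2 58, which also called 0 after adjustment. A missed threshold does not show that the difference was the same at both cell numbers.

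CTCF in dual and in single staining was compared at 10000 cells in 4201 distal H3K4me3 bins, which asks whether the H3K4me3 antibody in the same cells went with other CTCF counts at H3K4me3-rich sites. Only 4 bins were called higher in dual staining, where 0.0424% of all 82617 tested bins were, and 4 lower, where 0.0533% of all were. The median log2 difference was −0.03, against 0.00 over all tested bins, and 516 distal H3K4me3 bins had an unadjusted p under 0.05. Proximal bins had 23 higher and 0 lower calls among 14805 tested, with a median of 0.12. At the strongest bins of the 12 leading regions the log2 difference ran from −0.03 in Rbfox2 to 1.21 near Tubb3 and was above 0 in 11, and none of the 12 passed the test (adjusted p from 0.161 to 0.991). For the distal H3K4me3 bins DESeq2 called 0, with 116 at an unadjusted p under 0.05. None of the 8 calls remained when any 1 library was left out.

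The 4 higher bins were all in noncoding records. The Pvt1 bin named above held 41, 48 and 38 CTCF counts in dual staining, against 21 and 31 in single staining (log2 difference 1.01 ± 0.22, adjusted p = 0.0226), and a Malat1 bin at chr19:5798981-5799980 held 19, 32 and 26 against 7 and 17 (1.4 ± 0.30, adjusted p = 0.0208). A bin in the ribosomal RNA region at chr17:39846841-39847840 held 117, 136 and 113 against 88 and 125 (0.51 ± 0.10, adjusted p = 0.0422). One in 4930556M19Rik at chr15:10755961-10756960 held 24, 25 and 28 against 13 and 14 (1.23 ± 0.30, adjusted p = 0.0498). Raw counts overlapped in the ribosomal RNA bin alone of these. Totals ran from 4066528 to 5241203 counts in dual staining, against 5159658 and 6653065 in single staining.

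The 4 lower bins lay inside Tcf7, a Wnt pathway transcription factor, at chr11:52273791-52274790 with 4, 14 and 4 counts in dual staining against 21 and 29 in single staining, inside Cd47 at chr16:49858801-49859800 with 10, 14 and 3 against 26 and 34, in Gm34086 at chr5:124046496-124047495 with 12, 13 and 16 against 32 and 46, and inside Ttc39b at chr4:83316661-83317660 with 14, 15 and 10 against 32 and 40. Their log2 differences were −1.44 ± 0.34, −1.41 ± 0.31, −1.19 ± 0.26 and −1.15 ± 0.27 in that order, with adjusted p from 0.0228 to 0.0438. The groups did not overlap in any of the 4.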

How the data were processed

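The deposited file holds the authors' unscaled counts, whole numbers of reads per 1 kb bin. The submitters' processing notes name bcl2fastq, HISAT2 2.1.0, deepTools 3.3.1 and GRCm38, and neither they nor the labels say how duplicates or multiply mapped reads were handled. Of 34 labelled samples, 28 matched a column by name, 6 (a primary-antibody version at 100 cells) are not analysed here, and 4 columns that matched no sample were not used.

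Bins on chromosomes 1 to 19 and X were kept, less 33 bins at 98.66 to 98.67 Mb of chromosome 2, 35.3 to 35.31 Mb of chromosome 9 and 19.41 to 19.42 Mb of chromosome 14, 12 of which were in the top 1%. Library size was the remaining total. Gene ends came from a RefSeq table on GRCm38.p6 (21631 coding, 16893 noncoding RNA genes and 10508 pseudogenes), and 1072 of 1228 microRNA genes matched a sequence by symbol.

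Counts were tested over all bins with edgeR 4.0.16 (quasi-likelihood, filterByExpr with a minimum of 10, no further scaling, Benjamini-Hochberg adjustment, threshold 0.05) in R 4.3.3, only libraries of the compared groups entering a fit. DESeq2 1.42.0, TMM, a filter of 10 counts, a replicate block, leaving out each library, the top 0.5% of bins, a distance of 10 kb and a gene-end window of 2 kb were alternatives. The test was tried on simulated counts, where log2 changes of 2 were recovered in 83.9% (H3K4me3 over CTCF), 91.5% and 94.6% (H3K27ac over Pol2S2P at 1000 and 100 cells) and 85.4% (CTCF dual over single) of changed bins that were tested, and changes of 1 in 18.3%, 9.72%, 30.5% and 9.52% in the same order. False calls numbered 3, 3, 2 and 2. The simulation used a fixed spread that was not estimated from these data and changed few bins, so these shares may not carry over to the data. Python 3.11.15, numpy 2.4.6, pandas 2.3.3, scipy 1.17.1 and matplotlib 3.10.9 made the tables and plots. Counting intervals are exact 95% binomial ones.

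Named are the 12 regions with the most H3K4me3 counts and the 5 widest (all among the 12), per comparison and direction up to 4 called bins with the largest fold, no overlap and at least 20 counts (10 at 100 cells) in every library of the higher group, list genes within 1 kb, and coding genes with at least 10 of the bins. The Malat1 bin of the CTCF comparison was named after its values were seen. The bins and lists were chosen with earlier results of these data known. Libraries with the same replicate number deviated together for H3K27ac and Pol2S2P at 1000 cells (correlations 0.122 to 0.139 over bins) and at 100 cells (0.0963 to 0.178). The same held for H3K4me3 and CTCF (0.0844 to 0.0879). Libraries with different numbers had correlations of −0.0815 to −0.0512, −0.137 to −0.00431 and −0.0583 to −0.023 in that order. The numbers thus go with a pairing of libraries in all of these comparisons. The values given are from the fit without a block, and counts of calls with a block are given below.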

Additional observations from a re-analysis of the deposited data

How the results depend on the processing

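The direction of calls between targets depended on scaling. For comparisons between targets, the shares over all tested bins with TMM, DESeq2 and the filter of 10 counts stand with each comparison above. Counts in the top 0.5% and over 10 kb come from the main fits, whose shares over all tested bins also stand above. For H3K4me3 over CTCF the calls in distal H3K4me3 bins were 337 higher and 981 lower with TMM and 121 and 913 with DESeq2, and 26 were lower among the top 0.5% of bins. For H3K27ac over Pol2S2P at 1000 cells they were 197 and 176 with TMM, 63 and 114 with DESeq2, 894 and 19 with the filter of 10 counts and 373 and 12 in the top 0.5%, and 18 were lower over 10 kb from coding ends. At 100 cells they were 7 and 38 with TMM, 1 and 22 with DESeq2 and 115 and 1 in the top 0.5%, and 1 was lower over 10 kb. Leaving out 1 library gave 1339 to 1533 higher and 293 to 389 lower for H3K4me3 over CTCF, 1256 to 1420 and 32 to 40 for H3K27ac over Pol2S2P at 1000 cells, and 412 to 582 and 3 to 6 at 100 cells, where the filter lets more bins through with 2 libraries in a group. CTCF in dual over single staining had 0 and 0 with DESeq2, with the filter of 10 counts and with any library left out, 0 and 1 with a replicate block, 0 lower in the top 0.5% and 1 lower over 10 kb. The replicate block gave 1153 and 373, 1518 and 41, and 370 and 4 for the other 3 comparisons, and changed no other count of calls by over 1.5 times. With the block 71.9%, 58.0% and 70.8% of all tested bins were higher in that order, and 19.5%, 10.1% and 6.61% lower. The causes were not tested.

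In the top 0.5% of bins, levels were 37.4 and 44.9 times the genome mean for H3K4me3 at 1000 and 10000 cells, 9.64 and 11.5 for dual-stained CTCF, 10.8 for single-stained CTCF, and 7.08, 7.09 and 13.1 for Pol2S2P at 100 cells, at 1000 cells and singly stained. Over 10 kb from coding ends they were 12.4 for dual-stained CTCF at 10000 cells, 13.2 and 12.4 for H3K27ac at 100 and 1000 cells, 6.45 for Pol2S2P at 100 cells and 11.7 for single-stained Pol2S2P. The share inside coding genes was 52.0% over 10 kb, 58.8% in the top 0.5% and 51.1% with a 2 kb window at gene ends. Noncoding RNA ends held 22.5% in the top 0.5% and 20.6% with the 2 kb window, pseudogene ends 1.35% and 1.48%, the inside of noncoding genes 8.13% over 10 kb, 5.81% and 5.49%, and positions outside genes 11.6% and 21.3%.

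Of 64 values for single bins under 633 alternatives, 531 kept direction and side of the threshold, 92 kept direction but missed it, and 10 turned. Those 10 were all with TMM or DESeq2, at Mir125b-1 for H3K27ac over Pol2S2P (−0.013 and −0.027), at Hotair for H3K4me3 over CTCF (−0.41 and −0.57) and for H3K27ac over Pol2S2P (−0.075 and −0.093), and in the strongest bins of Plec (−0.54 and −0.66) and Runx1 (−0.11 and −0.23) for H3K4me3 over CTCF. Of the 4794 distal H3K4me3 bins 2010 passed the main filter for H3K4me3 over CTCF at 1000 cells, and 4784 the filter of 10 counts, which also turned their median log2 difference from below to above that of all tested bins (0.85 against −0.35). For H3K27ac over Pol2S2P at 100 cells 495 passed the main filter.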

Other observations

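Distal H3K4me3 bins were unevenly spread over the chromosomes. Chromosome 15 held 456 of them, or 4.39 per 1000 bins, and chromosome 11 held 407, or 3.34 per 1000, whereas the X chromosome held 100, or 0.585 per 1000. Single-stained CTCF stood at 1.58 times the genome mean over chromosome 15, 1.64 over chromosome 11 and 0.423 over the X chromosome. H3K4me3 in the libraries that chose the bins stood at 1.56, 1.79 and 0.366 in the same order. The CTCF levels were thus not particular to CTCF, and the count threshold was the same for every chromosome. The part of these chromosome-wide levels in the uneven spread was not tested. Of the 12 strongest regions 3 lay on chromosome 15, near Lncppara, in Plec and in Rbfox2, as did the Pvt1 and Hotair bins.

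Beyond the listed microRNAs, the genes of 21 microRNAs in all lay within 1 kb of a distal H3K4me3 bin, among them Mir30a, a muscle-expressed microRNA, and Mir193a. Of the 3 small cytoplasmic RNA genes, bins at their ends over 5 kb from coding genes were distal H3K4me3 bins in 3 of 4 cases. Mascrna, a gene of this type, lies in the Malat1 region described above, so this count is not separate from that region. The gene of the telomerase RNA template had 2 of 4 such bins and the Y RNA genes 2 of 6.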
